A study of Homo sapiens with 8 samples.

Results

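Transcripts of 40 genes that encode the Polycomb repressive complexes PRC1 and PRC2 and the linked PR-DUB complex were followed across 4 groups of HEK293T cells, a human embryonic kidney line. The genes were listed by name, with earlier results of these data known, each was found by its Ensembl identifier among the 60617 genes of the deposited count table, and 37 of the 40 passed the filter on low counts. The groups were 3 knockout derivatives of the line, labelled sgKDM5C, sgKDM6A and sgKMT2B after the gene that the guide RNA addressed, and the unedited line (WT), with 2 libraries in each group. All 4 groups are the same line in the same medium, with no further agent named in the labels. The labels do not say whether a knockout was a single clone, which guide was used or whether replicates were separate cultures, so p reflects no more than the spread of these libraries, possibly a technical one. In such bulk RNA, fewer cells making a transcript and less of it per cell cannot be told apart.

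PRC2 places methyl groups on lysine 27 of histone H3 through its catalytic subunits EZH2 and EZH1, and PRC1 attaches ubiquitin to histone H2A through RNF2 and RING1. Canonical PRC1 reads the PRC2 mark through CBX proteins and compacts chromatin with PHC proteins, whereas variant PRC1 holds RYBP or YAF2 in place of CBX and is brought to unmethylated CpG islands by KDM2B or to other sites by DNA-binding partners. PR-DUB, with BAP1 as its enzyme, removes the ubiquitin again. The 3 targeted enzymes act on the same or the opposing marks: KDM6A removes the methyl groups that PRC2 places, KMT2B methylates lysine 4 of histone H3 at promoters, and KDM5C removes methyl groups from that lysine.

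Library totals ran from 15868353 counts (WT replicate 2) to 27591724 (sgKDM6A replicate 2), and 3 counts corresponded to between 0.107 and 0.195 CPM (counts scaled to the library total with TMM factors). Levels are given in CPM throughout, and levels of different genes are compared only per kilobase of merged exons. Merged exons join all annotated transcripts of a gene. Which transcripts were expressed was not tested, so the order of genes depends in part on annotated length. The targeted genes were lower in their own knockouts: KDM5C had 331 and 312 CPM in sgKDM5C, against 440 and 471 CPM in WT, KDM6A had 10.4 and 11.5 CPM in sgKDM6A, against 54.2 and 61.2 CPM in WT, and KMT2B had 63.0 and 75.5 CPM in sgKMT2B, against 146 and 137 CPM in WT. KDM5C also lay below WT in sgKDM6A (378.7 and 386.5 CPM) and sgKMT2B (395.3 and 390.1 CPM), though less far. KMT2B did so in sgKDM5C (112.7 and 127.5 CPM) and sgKDM6A (124.3 and 122.9 CPM). Of 9 markers of the line, 7 exceeded 1 CPM in both libraries of each knockout and 8 in both WT libraries, and LHX1 stayed at or below 0.198 CPM in all 8 libraries. NEFM had 0 to 0.0788 CPM in the knockouts, against 5.58 and 5.72 CPM in WT, and KRT8 had 5.15 and 5.61 CPM in sgKDM6A and 247 and 265 CPM in sgKMT2B, against 59.9 and 61.3 CPM in WT. Most blood, endothelial and liver markers were at or near 0 in every library, and the endothelial marker VWF had 1.2 and 1.26 CPM in sgKMT2B. The summed fibroblast markers reached 42.2 to 48.6 CPM in sgKMT2B, against 1.61 to 2.34 CPM in WT, nearly all of it COL3A1, with 2 of the 4 markers above 1 CPM there, and their part in the results was not tested.

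Upstream sequence is shown for the 2 members that changed in all 3 knockouts, PHC1 and CBX6, and for RBBP7, which had the smallest adjusted p. The windows come from RefSeq start sites on GRCh38.p14, run 5′ to 3′ on the gene's strand and stop before any exon annotated by GENCODE v29. GENCODE v29 places the genes at chr12:8913896-8941467 on the plus strand (PHC1), chr22:38861450-38872314 on the minus strand (CBX6) and chrX:16839283-16870414 on the minus strand (RBBP7). The windows are chr12:8913593-8913842 on the plus strand for PHC1, chr22:38872315-38872466 on the minus strand for CBX6 and chrX:16870415-16870612 on the minus strand for RBBP7. Capitals mark exact matches, on either strand, to the E-box CACGTG or the GC box GGGCGG.
PHC1: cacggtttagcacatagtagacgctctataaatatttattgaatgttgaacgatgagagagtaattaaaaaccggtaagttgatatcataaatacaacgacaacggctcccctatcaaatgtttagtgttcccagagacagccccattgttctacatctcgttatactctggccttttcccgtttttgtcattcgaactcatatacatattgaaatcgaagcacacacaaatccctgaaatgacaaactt
CBX6: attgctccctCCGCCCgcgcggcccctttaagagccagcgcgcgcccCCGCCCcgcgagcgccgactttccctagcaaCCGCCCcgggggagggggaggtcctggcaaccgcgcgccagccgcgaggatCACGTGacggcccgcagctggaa
RBBP7: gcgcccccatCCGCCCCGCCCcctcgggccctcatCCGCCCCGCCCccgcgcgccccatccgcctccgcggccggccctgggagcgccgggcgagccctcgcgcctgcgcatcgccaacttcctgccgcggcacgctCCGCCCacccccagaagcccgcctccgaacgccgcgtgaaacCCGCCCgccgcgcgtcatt
The PHC1 window held 37.6% G and C and no match, the CBX6 window held 75.0%, 1 E-box and 3 GC boxes, and the RBBP7 window held 80.8% and 6 GC boxes, of which neighbours partly overlap. RefSeq windows of 250 bases upstream were found for 36 of the 40 members, with none for CBX2, CBX8, EPOP and BAP1. For each member 1 window was used, at the start site nearest the GENCODE gene start, whereas all windows can include several start sites of a gene. In 27 of the 36, bases just downstream of the start site matched a GENCODE transcript of the gene. The median member window held 71.8% G and C and 25.5 CpG dinucleotides, against 58% and 11 over all 35097 windows. A GC box occurred in 72.2% of member windows and 42.6% of all windows, an E-box in 19.4% and 6.34%, and the CCAAT box CCAAT in 33.3% and 32%. The E2F motif TTCCCGCC (2.78% of member windows, 2.72% of all), the ETS motif CCGGAAG (5.56% and 8.52%) and the YY1 motif AAGATGGC (0% and 1.36%) were searched in the same way.

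HEK293T cells contained transcripts of nearly every role. Per kilobase, the histone chaperones RBBP7 and RBBP4, the deubiquitinase BAP1, the SAM-domain protein PHC2 and the chromodomain proteins CBX2 and CBX6 were the most abundant. RBBP7 averaged 30.8 ± 1.5 CPM per kilobase in sgKDM6A and 56.0 ± 3.5 in WT (SD, n = 2), whereas CBX7, the lowest quantified member, averaged 1.02 ± 0.07 in sgKDM6A and 0.795 ± 0.231 in WT. Next above CBX7 came YAF2 at 1.38 ± 0.03 in sgKDM6A and 1.84 ± 0.36 CPM per kilobase in WT, PHC3 at 2.00 ± 0.46 and 2.34 ± 0.30, and AUTS2 at 2.15 ± 0.11 and 2.37 ± 0.04. YAF2, PHC3 and AUTS2 have long merged exons (10839, 16919 and 24197 bases), and AUTS2 averaged 57.4 CPM in WT. In WT, RBBP7 stood above RBBP4 and BAP1 (44.3 ± 3.0 and 41.2 ± 4.7 CPM per kilobase), while RBBP4 and BAP1 did not differ beyond their spread. Before the division by exon length, RBBP7 and RBBP4 were close in WT, with means of 414 and 420 CPM. EZH2, at 18.8 ± 0.9 CPM per kilobase in WT, lay well above its partners EZH1 (6.75 ± 0.71), SUZ12 (5.50 ± 1.31) and EED (4.72 ± 0.58), and the last 2 did not differ beyond their spread.

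**Figure D1:**
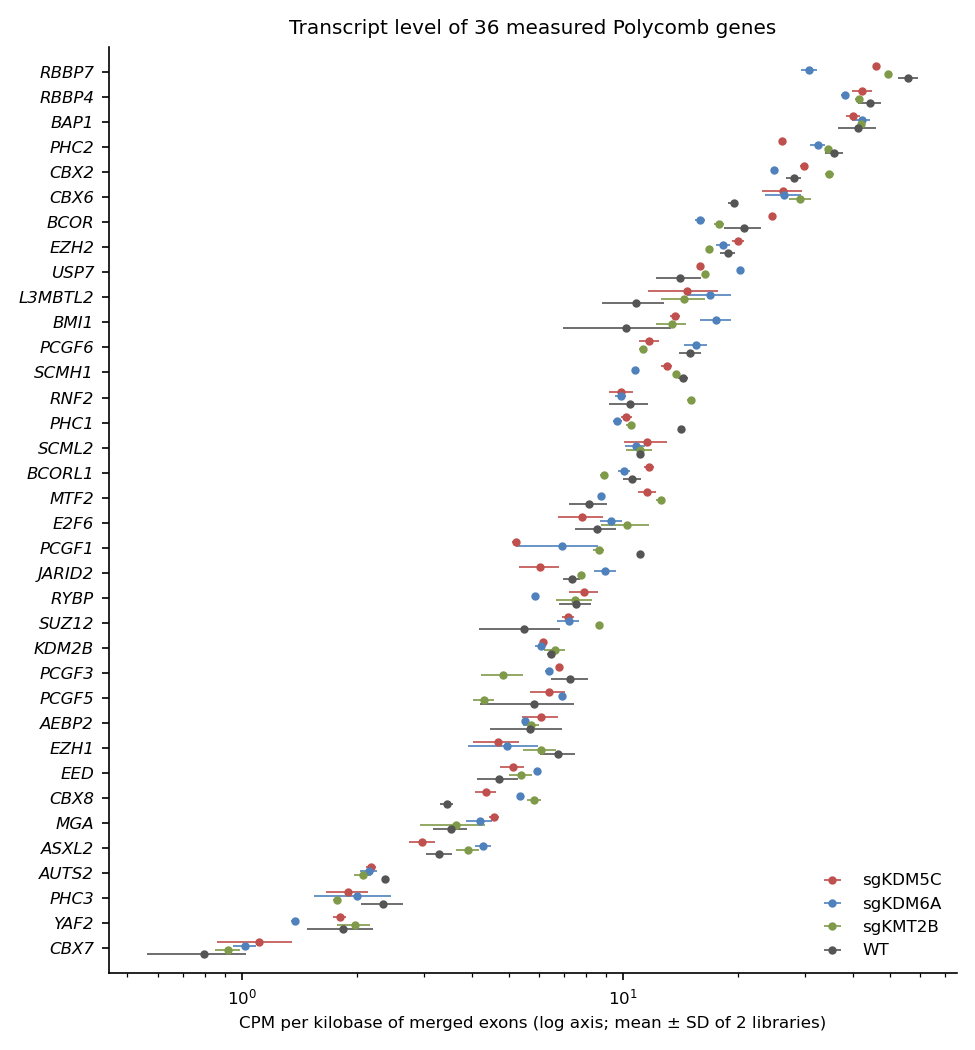
Level of 36 Polycomb genes in CPM per kilobase of merged exons, on a log axis, with points for the mean and bars for the SD of 2 libraries in each group. RBBP7, RBBP4 and BAP1 lie at the top and CBX7 at the bottom, and RBBP7 in sgKDM6A (30.8) stands apart from WT (56.0).

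The other 4 members were listed at or near 0 and are described no further as expressed or silent. EPOP had 0 counts over the 8 libraries, PCGF2 had 1, RING1 had 6 and PHF1 had 69, a mean of 0.354 CPM that passed the filter. EPOP and PCGF2 lie on chromosome 17 and RING1 and PHF1 in a block of chromosome 6 where other genes were also near 0, among them PSMB3 (3 counts), which encodes a proteasome subunit, and PFDN6 (0 counts), which encodes a prefoldin subunit. Of 31 protein-coding neighbours within 100 kb of these 4 genes, 26 (83.9%) averaged under 1 CPM, compared with 35 of 134 (26.1%) near the other 36 members. Whether these loci were missed in the counting was not tested. RNF2 is therefore the only ligase, and BMI1 the only canonical PCGF subunit, with values that can be compared.

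Few Polycomb genes changed much, and the share called was close to that of all genes. Beside genes averaging 5 CPM or more, it was lower in sgKDM5C and sgKMT2B and slightly lower in sgKDM6A, a difference that was not tested. In sgKDM5C, 2 of the 37 tested members were higher than in WT and 6 were lower, 21.6% in all, where 22.6% of the 17527 tested genes were called (11.1% higher and 11.5% lower). In sgKDM6A, 6 were higher and 6 lower, 32.4% in all, beside 27.2% of all genes (12.6% higher and 14.6% lower). In sgKMT2B, 6 were higher and 3 lower, 24.3% in all, beside 28.1% of all genes (13.7% higher and 14.5% lower). Above a mean level of 5 CPM, which all tested members but PHF1 reach, the shares of genes called were 28.4%, 34.1% and 35.2%. Calls are at an adjusted p under 0.05 in edgeR's quasi-likelihood test with Benjamini-Hochberg adjustment, and all 3 comparisons use the same WT libraries. Single libraries moved these counts: in sgKDM5C, 7 members were higher without WT replicate 1, and 1 was higher and 3 lower without sgKDM5C replicate 1. In sgKDM6A, 3 were higher and 3 lower without sgKDM6A replicate 1, and in sgKMT2B 1 was lower without either replicate 1 or replicate 2 of sgKMT2B.

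The members' median log2 change was -0.03 in sgKDM5C, -0.05 in sgKDM6A and 0.00 in sgKMT2B, against 0.02, 0.01 and 0.00 over all tested genes. The median size of a change regardless of sign was 0.17, 0.29 and 0.22 for the members and 0.33, 0.36 and 0.36 for all tested genes. Over the 11249 genes averaging 5 CPM or more it was 0.25, 0.28 and 0.28, so the members' median lay below it in sgKDM5C and sgKMT2B and slightly above it in sgKDM6A. One member passed the threshold with at least a 2-fold change, PCGF1 in sgKDM5C, where 6.24% of all genes did so, and no member did in sgKDM6A or sgKMT2B, where 8.00% and 8.83% of all genes did. Among genes averaging 5 CPM or more, 3.51%, 5.09% and 5.95% did so in sgKDM5C, sgKDM6A and sgKMT2B. By gene, 17 members were called in 0 knockouts, 13 in 1, 5 in 2, and CBX6 and PHC1 in all 3. That is 45.9%, 35.1%, 13.5% and 5.41% of the tested members, beside 41.2%, 30.3%, 17.9% and 10.5% of the genes averaging 5 CPM or more, and the 3 comparisons share the WT libraries.

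**Figure D2:**
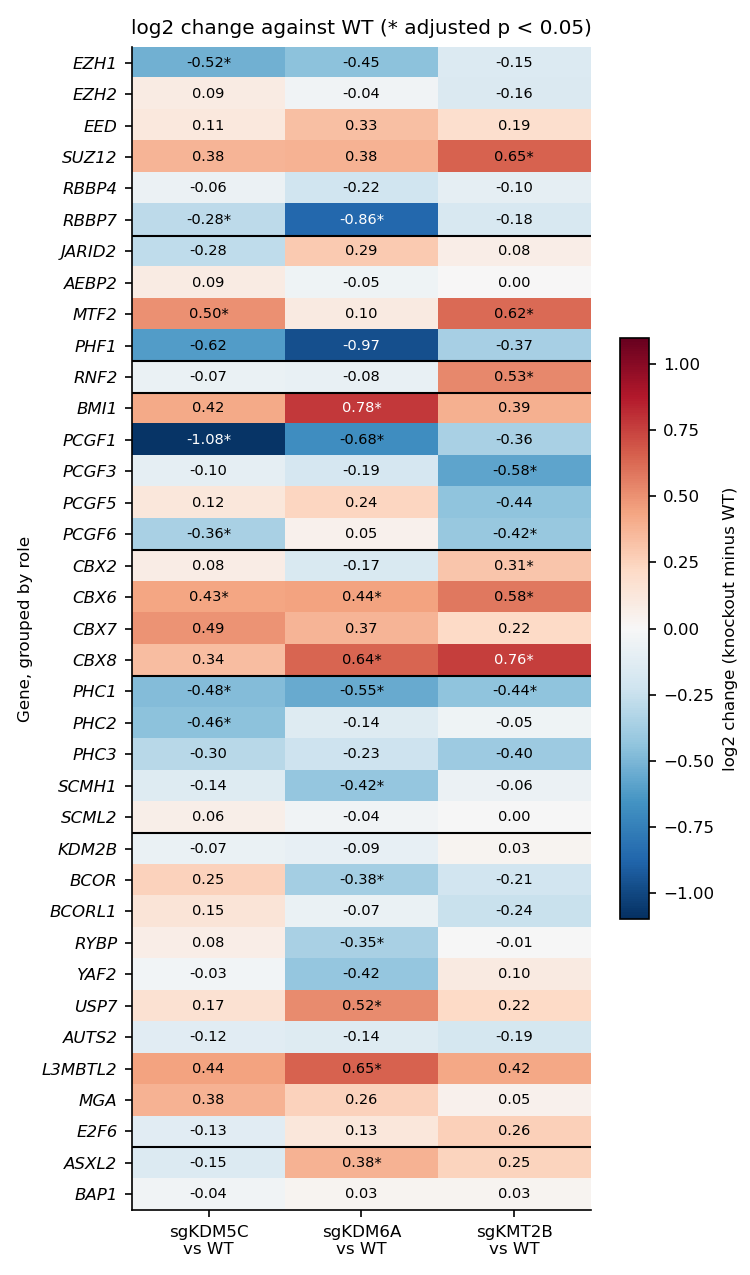
log2 change against WT of the 37 tested members, in rows grouped by role, with 1 column for each knockout and an asterisk at an adjusted p under 0.05. CBX6 is higher and PHC1 lower in all 3 columns, PCGF1 in sgKDM5C reaches -1.08, and PHF1 rests on 0.354 CPM.

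In the PRC2 core, the catalytic subunit of most abundance and the subunit that reads the mark did not pass the test in any knockout. EZH2 had 88.2 and 93.0 CPM in sgKDM5C, 80.3 and 85.4 CPM in sgKDM6A and 77.2 and 75.0 CPM in sgKMT2B, against 82.5 and 87.9 CPM in WT. These values lie close together, with fitted log2 changes of 0.09 ± 0.10, -0.04 ± 0.10 and -0.16 ± 0.10 (SE). EED, which binds methylated H3, had log2 changes of 0.11 ± 0.13, 0.33 ± 0.13 and 0.19 ± 0.13, and RBBP4 had -0.06 ± 0.09, -0.22 ± 0.09 and -0.10 ± 0.09.

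SUZ12, the scaffold of PRC2, had 56.4 and 56.8 CPM in sgKMT2B, 45.7 and 48.1 CPM in sgKDM5C and 44.8 and 49.3 CPM in sgKDM6A, against 42.1 and 29.9 CPM in WT. Every knockout library lay above both WT libraries, which differed more from each other than the libraries of any knockout. Its log2 change passed in sgKMT2B (0.65 ± 0.14, adjusted p = 0.00468) and was 0.38 ± 0.14 in both sgKDM5C (adjusted p = 0.0749) and sgKDM6A (adjusted p = 0.0652). The sgKMT2B change was 0.43 without WT replicate 2 (adjusted p = 0.0299) and 0.92 without WT replicate 1 (adjusted p = 0.00039).

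RBBP7, a histone chaperone that PRC2 shares with deacetylase complexes, showed the most significant change of the set. It had 220 and 235 CPM in sgKDM6A, 342 and 338 CPM in sgKDM5C and 365 and 367 CPM in sgKMT2B, against 396 and 432 CPM in WT. The sgKDM6A libraries were the lowest, and no knockout library reached the WT range. On the log2 scale it changed by -0.86 ± 0.09 in sgKDM6A (adjusted p = 1.72e-05), -0.28 ± 0.08 in sgKDM5C (adjusted p = 0.0273) and -0.18 ± 0.08 in sgKMT2B (adjusted p = 0.131). Leaving out WT replicate 2 ended the sgKDM5C call (adjusted p = 0.0844), and so did leaving out sgKDM5C replicate 1 (0.121) or 2 (0.106). TXLNG, which shares 179 exonic bases with RBBP7 on the opposite strand, had a log2 change of 0.21 ± 0.11 in sgKDM6A.

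EZH1, the less active of the methyltransferase paralogs, had 29.5 and 36.0 CPM in sgKDM5C, 29.4 and 39.6 CPM in sgKDM6A and 39.4 and 45.4 CPM in sgKMT2B, against 43.7 and 50.7 CPM in WT. All sgKDM5C and sgKDM6A libraries lay below WT, and sgKMT2B overlapped it. The change was -0.52 ± 0.16 in sgKDM5C (adjusted p = 0.0294) and -0.45 ± 0.16 in sgKDM6A (adjusted p = 0.0507). Without WT replicate 2 the sgKDM5C change had an adjusted p of 0.139, and without sgKDM5C replicate 1 one of 0.212.

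Among the PRC2 accessory subunits, MTF2, a Polycomb-like protein that binds CpG-rich DNA, was higher in sgKDM5C and sgKMT2B. MTF2 had 65.7 and 71.0 CPM in sgKDM5C, 51.1 and 52.2 CPM in sgKDM6A and 72.5 and 75.6 CPM in sgKMT2B, against 51.9 and 44.3 CPM in WT. The sgKDM5C and sgKMT2B libraries stood above all others, and sgKDM6A overlapped WT. MTF2's log2 change came to 0.50 ± 0.11 in sgKDM5C (adjusted p = 0.00624), 0.10 ± 0.11 in sgKDM6A and 0.62 ± 0.11 in sgKMT2B (adjusted p = 0.00116). Without sgKDM5C replicate 2, the sgKDM5C change had an adjusted p of 0.052. JARID2 and AEBP2, which define the other PRC2 subtype, passed in no knockout against WT. JARID2 differed in sign, with log2 changes of -0.28 ± 0.12 in sgKDM5C and 0.29 ± 0.12 in sgKDM6A.

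RNF2, the measurable ubiquitin ligase, was higher only in sgKMT2B among the comparisons with WT. It had 60.3 and 62.1 CPM in sgKMT2B, 38.2 and 42.4 CPM in sgKDM5C and 41.1 and 39.1 CPM in sgKDM6A, against 45.8 and 38.9 CPM in WT. The sgKMT2B libraries lay above the other 6, which overlapped. The log2 change was 0.53 ± 0.12 in sgKMT2B (adjusted p = 0.00489), and the 29 genes within 5 Mb had a median change of 0.38 in the same knockout.

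The PCGF subunits, which decide the PRC1 subtype, moved in different directions. PCGF1, the subunit of the BCOR-containing PRC1, had 13.5 and 14.0 CPM in sgKDM5C, 21.2 and 15.0 CPM in sgKDM6A and 22.1 and 23.2 CPM in sgKMT2B, against 29.2 and 28.9 CPM in WT. All 6 knockout libraries were below WT, and the sgKDM5C pair was lowest. PCGF1's log2 change came to -1.08 ± 0.16 in sgKDM5C (adjusted p = 0.000707), -0.68 ± 0.16 in sgKDM6A (adjusted p = 0.00729) and -0.36 ± 0.16 in sgKMT2B (adjusted p = 0.113). The 58 genes within 5 Mb had a median change of -0.41 in sgKDM5C and -0.02 in sgKDM6A. Without sgKDM6A replicate 2, the sgKDM6A change was -0.45 (adjusted p = 0.0904).

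BMI1, the canonical PRC1 subunit that represses the CDKN2A locus, had 80.2 and 70.1 CPM in sgKDM6A, 59.9 and 57.4 CPM in sgKDM5C and 61.1 and 53.6 CPM in sgKMT2B, against 53.3 and 33.8 CPM in WT. The knockout libraries all lay above WT, whose 2 libraries were far apart. The log2 change passed in sgKDM6A (0.78 ± 0.17, adjusted p = 0.00425) and was 0.42 ± 0.17 in sgKDM5C (adjusted p = 0.0881) and 0.39 ± 0.17 in sgKMT2B (adjusted p = 0.101). The sgKDM6A change was 0.50 without WT replicate 2 (adjusted p = 0.0203) and 1.16 without WT replicate 1 (adjusted p = 0.000151), beside a neighbourhood median of 0.20. In sgKMT2B the 25 genes within 5 Mb of BMI1 moved the other way, with a median of -0.39. COMMD3-BMI1, a readthrough transcript that shares 1000 exonic bases with BMI1, had 0 CPM. How reads in exons shared between genes were counted was not tested, so this 0 does not show that the readthrough was absent.

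PCGF3 and PCGF6 were lower in sgKMT2B, and the medians of their neighbours had the same sign. PCGF3 had 39.2 and 32.8 CPM in sgKMT2B, 50.4 and 50.4 CPM in sgKDM5C and 46.5 and 48.02 CPM in sgKDM6A, against 49.8 and 58.2 CPM in WT. Both sgKMT2B libraries lay below all others, with a log2 change of -0.58 ± 0.12 (adjusted p = 0.00365, and 0.0565 without sgKMT2B replicate 2), beside a median of -0.48 over the 48 genes within 5 Mb. PCGF6, the subunit of the PRC1 that contains MGA and L3MBTL2, had a log2 change of -0.42 ± 0.12 in sgKMT2B (adjusted p = 0.0178) beside a neighbourhood median of -0.37, and of -0.36 ± 0.12 in sgKDM5C (adjusted p = 0.042) beside -0.07. The sgKMT2B call of PCGF6 ended without WT replicate 1 (adjusted p = 0.0803) and without either sgKMT2B library (0.0962 and 0.113), and the sgKDM5C call without WT replicate 1 (0.152) and without either sgKDM5C library (0.101 and 0.196). PCGF5 had -0.44 ± 0.16 in sgKMT2B and missed the threshold (adjusted p = 0.0535). Both PCGF5 and PCGF6 lie on chromosome 10, whose median change in sgKMT2B was -0.33 over 467 genes.

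Of the 4 CBX readers of methylated H3, CBX6 was higher in every knockout. CBX6 had 229 and 193 CPM in sgKDM5C, 228 and 196 CPM in sgKDM6A and 245 and 223 CPM in sgKMT2B, against 153 and 160 CPM in WT. All 6 knockout libraries were above both WT libraries. CBX6's log2 change came to 0.43 ± 0.11 in sgKDM5C (adjusted p = 0.0115), 0.44 ± 0.11 in sgKDM6A (adjusted p = 0.00869) and 0.58 ± 0.11 in sgKMT2B (adjusted p = 0.00143), while the 100 genes within 5 Mb had medians of -0.11, -0.15 and -0.04. Without sgKDM5C replicate 1 the sgKDM5C change fell short (0.30, adjusted p = 0.142), and without sgKDM6A replicate 1 so did that in sgKDM6A (0.33, adjusted p = 0.11).

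CBX8 had 22.0 and 22.7 CPM in sgKDM6A, 25.0 and 23.5 CPM in sgKMT2B and 19.0 and 17.3 CPM in sgKDM5C, against 13.9 and 14.8 CPM in WT. The groups did not overlap WT, and the sgKMT2B libraries were highest. The log2 change was 0.64 ± 0.14 in sgKDM6A (adjusted p = 0.00402), 0.76 ± 0.14 in sgKMT2B (adjusted p = 0.00122) and 0.34 ± 0.14 in sgKDM5C (adjusted p = 0.0906). CBX2, which lies next to CBX8 on chromosome 17 and compacts nucleosomes, changed less and passed only in sgKMT2B (0.31 ± 0.09, adjusted p = 0.0174), where the call ended without WT replicate 2 (adjusted p = 0.0612) and without either sgKMT2B library (0.132 and 0.0656). The 130 genes within 5 Mb of this pair had a median of -0.04 in sgKMT2B. CBX7, at 4.71 to 9.53 CPM over the 8 libraries, passed in no knockout.

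The SAM-domain proteins PHC and SCM fell where they passed. PHC1 had 60.6 and 63.5 CPM in sgKDM5C, 57.6 and 59.9 CPM in sgKDM6A and 62.4 and 64.9 CPM in sgKMT2B, against 86.0 and 86.5 CPM in WT. The 3 knockouts lay within a narrow range, apart from the 2 WT libraries. The log2 change was -0.48 ± 0.10 in sgKDM5C (adjusted p = 0.00433), -0.55 ± 0.10 in sgKDM6A (adjusted p = 0.00122) and -0.44 ± 0.10 in sgKMT2B (adjusted p = 0.0048, and 0.0676 without sgKMT2B replicate 1). Neighbourhood medians over 59 genes were -0.01, -0.03 and -0.08. M6PR, which shares 1105 exonic bases with PHC1 on the opposite strand, had log2 changes of 0.21 ± 0.13, 0.26 ± 0.13 and 0.00 ± 0.13 and passed in no knockout.

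PHC2 had 129 and 131 CPM in sgKDM5C, against 171 and 184 CPM in WT, without overlap. Its log2 change was -0.46 ± 0.09 in sgKDM5C (adjusted p = 0.00321), -0.14 ± 0.09 in sgKDM6A and -0.05 ± 0.09 in sgKMT2B. SCMH1 had 47.0 and 48.2 CPM in sgKDM6A, against 62.6 and 65.1 CPM in WT, a log2 change of -0.42 ± 0.10 (adjusted p = 0.00793, and 0.0718 without sgKDM6A replicate 1). PHC3 and SCML2 passed in no knockout.

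**Figure D3:**
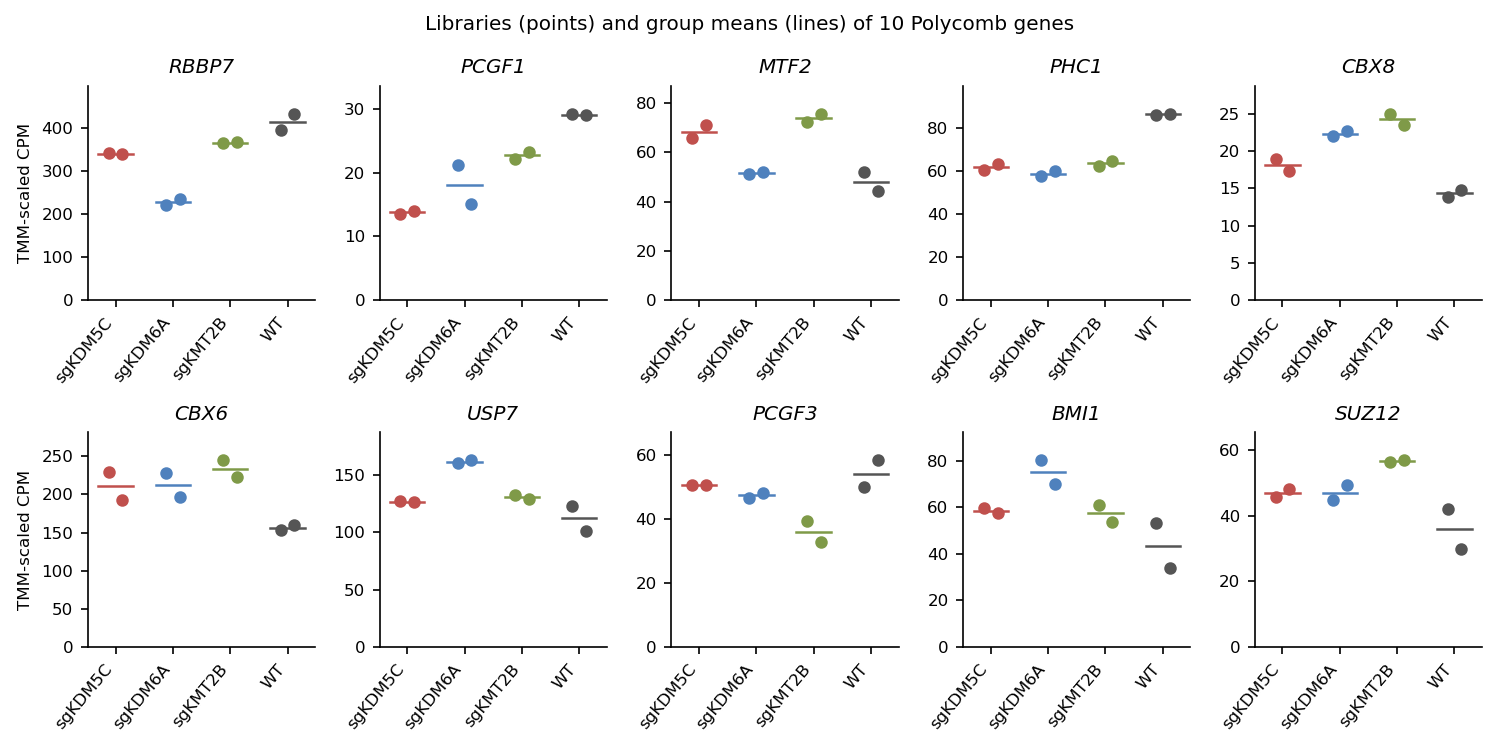
TMM-scaled CPM (y axis from 0) in every library of the 10 members with the smallest adjusted p among those called with a log2 change of at least 0.5 in size. Points are libraries and lines are group means. PHC1 is below WT and CBX6 above WT in all 6 knockout libraries, and BMI1 and SUZ12 have WT libraries that lie far apart.

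Of the 10 variant PRC1 genes, 0 passed in sgKDM5C, 0 in sgKMT2B and 4 in sgKDM6A, where 2 were higher and 2 lower. The share of all genes called was 22.6%, 28.1% and 27.2% in that order, and 34.1% in sgKDM6A among genes averaging 5 CPM or more. USP7, a deubiquitinase that acts with the BCOR complex, had 160 and 163 CPM in sgKDM6A, 127 and 126 CPM in sgKDM5C and 132 and 129 CPM in sgKMT2B, against 123 and 101 CPM in WT. The sgKDM6A libraries stood above the rest, with a log2 change of 0.52 ± 0.10 (adjusted p = 0.0023). L3MBTL2, a chromatin reader of the PCGF6 complex, lay above both WT libraries in every knockout library and was not called between knockouts. Its log2 changes of 0.44 ± 0.16 in sgKDM5C and 0.42 ± 0.16 in sgKMT2B did not pass (adjusted p = 0.0639 and 0.0669). In sgKDM6A it had 119 and 99.0 CPM, against 78.5 and 60.4 CPM in WT, a log2 change of 0.65 ± 0.16 (adjusted p = 0.00973). Without WT replicate 2 its adjusted p was 0.0797, and without sgKDM6A replicate 1 it was 0.091.

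BCOR, the corepressor of the PCGF1 complex, had 139 and 133 CPM in sgKDM6A, against 163 and 191 CPM in WT, a log2 change of -0.38 ± 0.10 (adjusted p = 0.011). The 19 genes within 5 Mb on chromosome X had a median of -0.46. RYBP, which can stand in for CBX in PRC1, had 42.4 and 42.3 CPM in sgKDM6A, against 50.6 and 57.9 CPM in WT (log2 change -0.35 ± 0.12, adjusted p = 0.046). Both calls ended without WT replicate 2 (adjusted p = 0.0684 for BCOR and 0.217 for RYBP) and without either sgKDM6A library (0.0503 and 0.0824 for BCOR, 0.169 and 0.155 for RYBP). KDM2B, which binds unmethylated CpG islands, ranged only from 80.8 to 93.9 CPM over the 8 libraries. BCORL1, YAF2, AUTS2, MGA and E2F6 did not pass against WT either.

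In PR-DUB, the enzyme gene BAP1 had log2 changes of -0.04 ± 0.10, 0.03 ± 0.10 and 0.03 ± 0.10 in sgKDM5C, sgKDM6A and sgKMT2B. Its cofactor ASXL2 had 54.0 and 57.8 CPM in sgKDM6A, against 45.2 and 40.5 CPM in WT, a log2 change of 0.38 ± 0.12 (adjusted p = 0.0283). It ended as a call without WT replicate 2 (adjusted p = 0.13) and without either sgKDM6A library (0.0761 and 0.15).

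Because paralogs compete for the same place in a complex, their shares of the summed CPM per kilobase were set side by side in each library. With 2 libraries a group, an exact permutation test cannot reach the threshold, so the shares are a description. EZH1 made up 17.79% and 20.02% of the EZH transcripts of sgKDM5C, 19.2% and 23.1% of those of sgKDM6A and 24.8% and 28.1% of those of sgKMT2B, against 25.5% and 27.2% in WT. The ratio of EZH2 to EZH1 was accordingly 4.62 and 4.00 for the sgKDM5C libraries, 4.22 and 3.33 for sgKDM6A and 3.03 and 2.55 for sgKMT2B, against 2.92 and 2.68 in WT. Only sgKDM5C and sgKDM6A lay wholly apart from WT.

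RBBP4 exceeded RBBP7 per kilobase in sgKDM6A alone, at 55.7% and 54.8% of the pair. Its share was 48.9% and 47.0% in sgKDM5C and 46.1% and 45.1% in sgKMT2B, against 44.1% and 44.3% in WT. That order depends on the merged exon lengths, 9470 bases for RBBP4 and 7392 for RBBP7. Before this division RBBP4 lay above RBBP7 in every library, with 400 and 440 CPM against 396 and 432 CPM in WT. BMI1 made up 31.3 ± 0.7% of the 5 measurable PCGF subunits in sgKDM5C, 32.9 ± 0.5% in sgKDM6A and 31.5 ± 1.8% in sgKMT2B, against 20.4 ± 4.4% in WT (SD, n = 2). PCGF1 made up 12.0 ± 0.4%, 12.9 ± 2.1% and 20.4 ± 1.4% in the same order of knockouts, against 22.5 ± 2.2% in WT. PCGF6 had the highest mean share in WT, at 30.5 ± 1.1%, where PCGF1 and BMI1 did not differ beyond their spread, and BMI1 had the highest mean share in each knockout.

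CBX2 and CBX6 together dominated the CBX set in every group. CBX6 made up 42.7 ± 2.5% in sgKDM5C, 45.7 ± 2.4% in sgKDM6A and 41.2 ± 0.9% in sgKMT2B, against 37.6 ± 1.4% in WT, and CBX2 made up 48.4 ± 2.0%, 43.2 ± 1.8% and 49.2 ± 0.9%, against 54.2 ± 2.2% in WT. CBX2 and CBX6 did not differ beyond their spread in sgKDM6A. PHC2 was the main PHC gene at 68.3 ± 0.8% in sgKDM5C, 73.5 ± 2.1% in sgKDM6A and 73.8 ± 0.0% in sgKMT2B, against 68.4 ± 1.5% in WT.

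**Figure D4:**
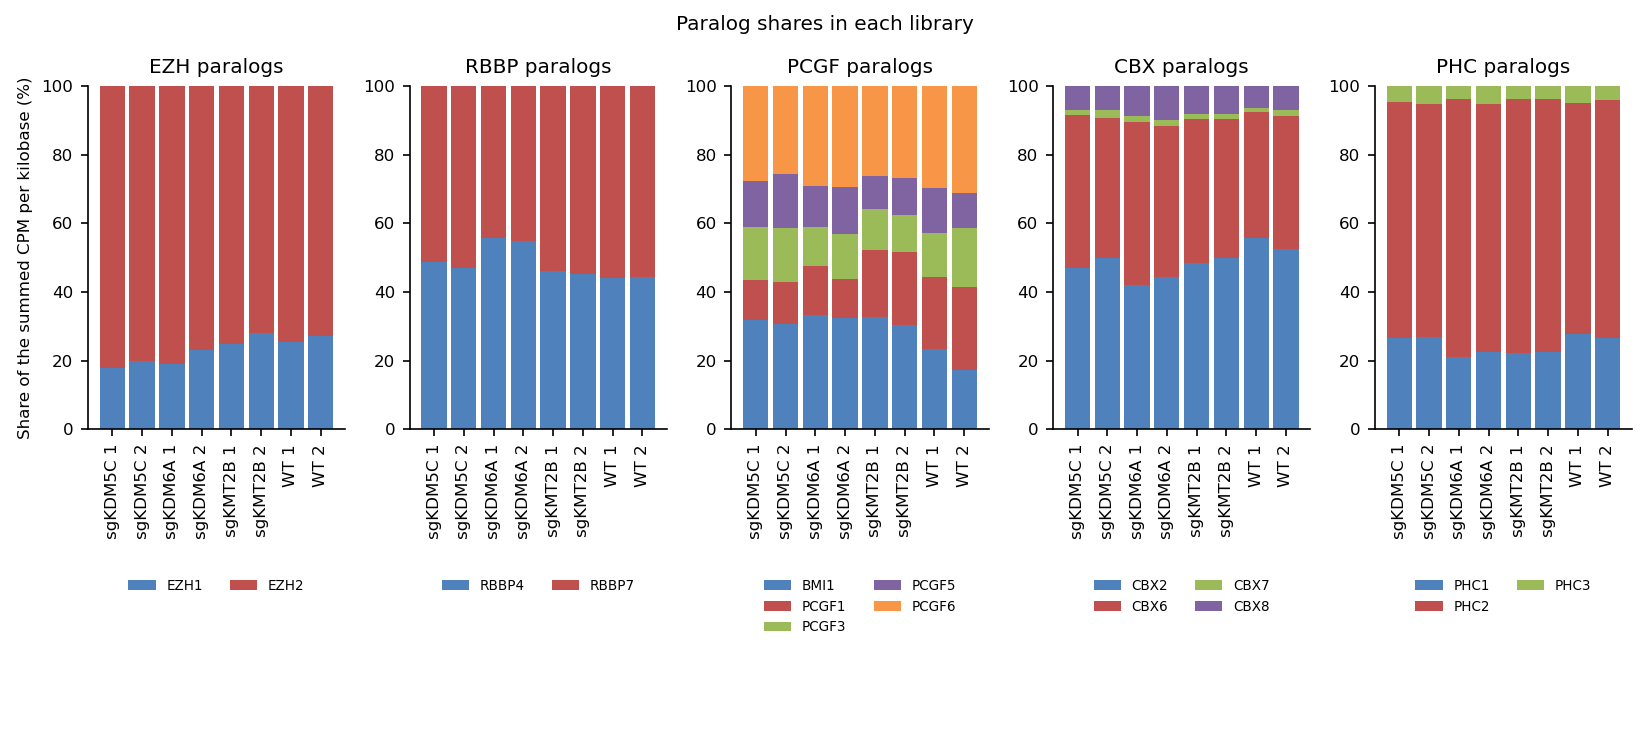
Share of each paralog in its family's summed CPM per kilobase (y axis, 0 to 100%), with 1 stacked bar for each library. The BMI1 share is larger in the 6 knockout libraries (means 31.3 to 32.9%) than in WT (20.4%), and RBBP4 exceeds 50% only in the sgKDM6A libraries. The RBBP order depends on the division by exon length, before which RBBP4 exceeds RBBP7 in every library.

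Some changes went along with those of neighbouring genes. For each of the 29 calls against WT, the median log2 change of the genes within 5 Mb that average 5 CPM or more was taken, a description added after the results were seen. In 4 of the 29 calls that median had the member's sign and at least 50% of its size: RNF2, PCGF3 and PCGF6 in sgKMT2B and BCOR in sgKDM6A. For PCGF1 in sgKDM5C it was 38.3% of the change, for MTF2 35.0% in sgKDM5C and 38.6% in sgKMT2B, and for RBBP7 25.5% in sgKDM6A. For CBX2, CBX6, CBX8, L3MBTL2, PHC2, SCMH1, RYBP and ASXL2, the median was of opposite sign in each of their calls against WT. Whether these regions were gained or lost in the knockout lines was not tested.

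**Figure D5:**
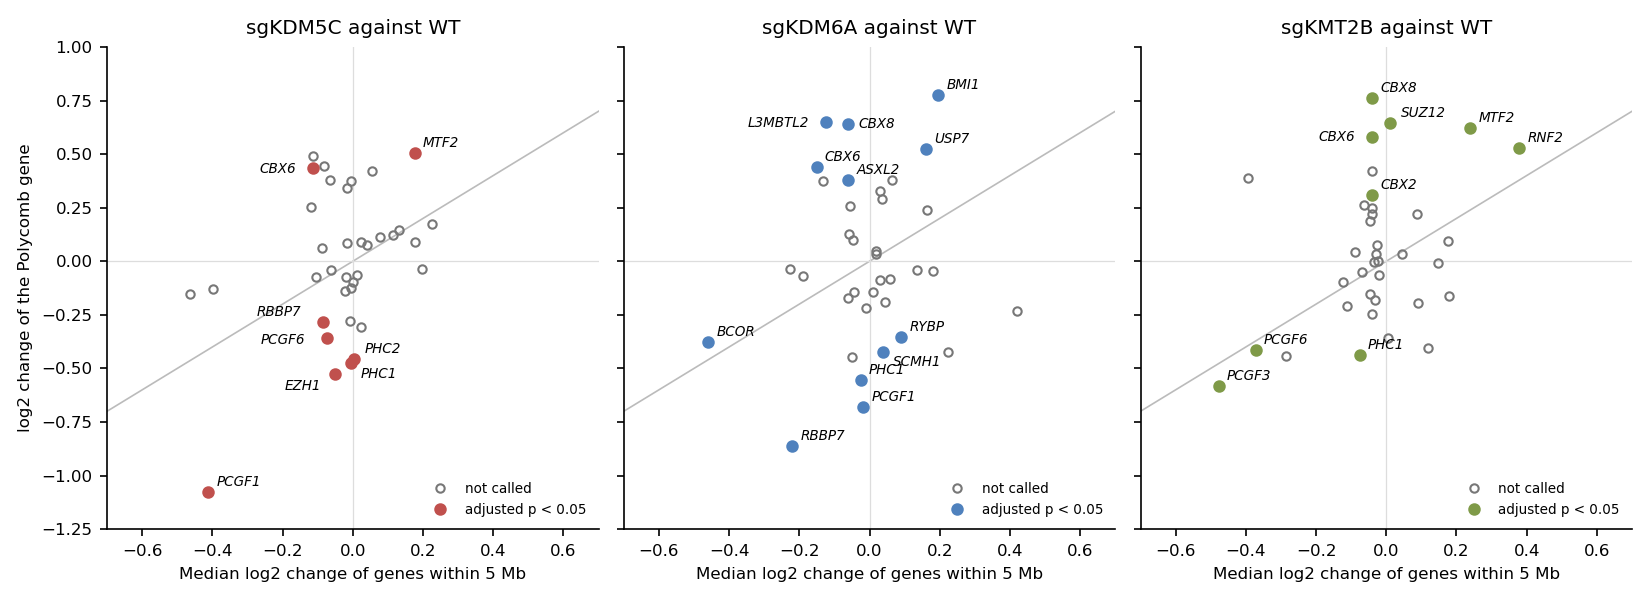
log2 change of each tested member except PHF1 against WT (y axis) and median log2 change of the genes within 5 Mb (x axis), in 1 panel for each knockout, with filled points at an adjusted p under 0.05 and a grey line of equal change. BCOR in sgKDM6A and PCGF3, PCGF6 and RNF2 in sgKMT2B lie near the line, and CBX6, CBX8 and PHC1 lie near the vertical line at 0.

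The knockouts were also compared with each other. Between sgKDM5C and sgKDM6A, 4 members were higher in sgKDM5C and 5 lower (19.8% of all genes called, 10.9% higher and 8.86% lower). Between sgKDM5C and sgKMT2B, 4 were higher in sgKDM5C and 6 lower (22.1% of all genes, 11.6% and 10.5%), and between sgKDM6A and sgKMT2B, 4 were higher in sgKDM6A and 6 lower (24.9% of all genes, 12.4% and 12.5%). RBBP7 was lower in sgKDM6A than in sgKMT2B (log2 -0.68 ± 0.08, adjusted p = 5.94e-05) and higher in sgKDM5C than in sgKDM6A (0.58 ± 0.08, adjusted p = 0.000367), so its fall in sgKDM6A differed from both other knockouts. RNF2 was lower in sgKDM5C than in sgKMT2B (-0.60 ± 0.12, adjusted p = 0.00236) and in sgKDM6A than in sgKMT2B (-0.61 ± 0.12, adjusted p = 0.00174). CBX2 was lower in sgKDM6A than in sgKMT2B (-0.48 ± 0.09, adjusted p = 0.0011). The counts rest on few libraries: none of the 5 members lower in sgKDM5C than in sgKDM6A was called without sgKDM5C replicate 1, and 1 was higher in sgKDM6A than in sgKMT2B without sgKDM6A replicate 1 or either sgKMT2B library.

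Some members that did not pass against WT differed between knockouts. JARID2, which recruits PRC2, had 33.3 and 39.5 CPM in sgKDM5C and 51.5 and 56.4 CPM in sgKDM6A, a log2 difference of -0.57 ± 0.12 (adjusted p = 0.00449). PCGF5 was higher in sgKDM6A than in sgKMT2B (0.68 ± 0.16, adjusted p = 0.00611) beside a neighbourhood median of 0.37. YAF2, the paralog of RYBP, was lower in sgKDM6A than in sgKMT2B (-0.52 ± 0.16, adjusted p = 0.0276), and BCORL1 was higher in sgKDM5C than in sgKMT2B (0.39 ± 0.10, adjusted p = 0.0106). The YAF2 call ended without any 1 of the 4 libraries compared (adjusted p from 0.0505 to 0.206), and that of BCORL1 without sgKDM5C replicate 2 (0.0937) or either sgKMT2B library (0.117 and 0.0666). Without sgKDM5C replicate 1 the JARID2 difference had an adjusted p of 0.0587, and without sgKMT2B replicate 1 that of PCGF5 had one of 0.061. BCOR, which did pass against WT in sgKDM6A, was higher in sgKDM5C than in sgKDM6A (0.63 ± 0.10, adjusted p = 0.000494) and than in sgKMT2B (0.46 ± 0.10, adjusted p = 0.00358). Both sgKDM5C libraries also lay above WT for BCOR, without passing (0.25 ± 0.10, adjusted p = 0.0737). In 11 of the 29 calls between knockouts the neighbourhood median had the same sign and at least 50% of the size.

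Further subunits of these complexes were counted beside the members. Of 30 tested genes of a list of 31, 3 were higher and 6 lower in sgKDM5C, 7 higher and 6 lower in sgKDM6A, and 8 higher and 4 lower in sgKMT2B. The shares called were 30%, 43.3% and 40%, beside 22.6%, 27.2% and 28.1% of all genes and 28.4%, 34.1% and 35.2% of genes averaging 5 CPM or more. HDAC1, a deacetylase found with RBBP4 and RBBP7, had 632 and 562 CPM in sgKDM5C, against 386 and 417 CPM in WT (log2 change 0.57 ± 0.09, adjusted p = 0.000748), and a log2 change of 0.51 ± 0.09 in sgKDM6A (adjusted p = 0.00102). LCORL, a PRC2 accessory gene, had 6.51 and 10.5 CPM in sgKMT2B, against 25.1 and 19.1 CPM in WT (-1.38 ± 0.29, adjusted p = 0.00326), beside a neighbourhood median of -0.52. The list's median log2 change was 0.04 in sgKDM5C, 0.09 in sgKDM6A and 0.01 in sgKMT2B.

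A further list was drawn around the lysine that PRC2 methylates, but also held genes such as NSD2 that act on other lysines. In it, KDM6B, the demethylase related to KDM6A, had 38.8 and 47.7 CPM in sgKDM6A and 47.6 and 65.7 CPM in sgKDM5C, against 84.5 and 86.8 CPM in WT. Both knockouts lay below WT, with log2 changes of -0.98 ± 0.16 (adjusted p = 0.00068) and -0.60 ± 0.16 (adjusted p = 0.016). NSD2, a methyltransferase for lysine 36 of H3, fell in sgKMT2B (-0.99 ± 0.09, adjusted p = 8.45e-06), beside a neighbourhood median of -0.47, as PCGF3 did on the same chromosome. Of 10 tested genes in that list of 11, 1 was higher and 2 lower in sgKDM5C, 1 higher and 3 lower in sgKDM6A, and 3 higher and 1 lower in sgKMT2B, beside 22.6%, 27.2% and 28.1% of all genes called in either direction. Of 22 subunits of SWI/SNF, a remodeller that opposes Polycomb, 20 were tested, with 5 higher and 3 lower in sgKDM5C, 4 higher and 1 lower in sgKDM6A, and 7 higher and 5 lower in sgKMT2B, or 40%, 25% and 60% called beside the same shares of all genes. Of 6 H2A deubiquitinases and readers, 0 passed in sgKDM5C, 0 in sgKDM6A and 1, USP21, in sgKMT2B, where it was higher.

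Genes known as Polycomb targets were also counted. Whether Polycomb complexes bind or repress them in these cells was not tested. Of 64 developmental transcription factors 52 were tested, of which 8 were higher and 6 lower in sgKDM5C, 8 higher and 9 lower in sgKDM6A, and 5 higher and 14 lower in sgKMT2B. The shares called were 26.9%, 32.7% and 36.5%, beside 22.6%, 27.2% and 28.1% of all genes. In sgKMT2B 26.9% of the factors were lower, beside 14.5% of all genes and 18.0% of those averaging 5 CPM or more. Their median log2 change was -0.01, -0.05 and -0.08, against 0.02, 0.01 and 0.00 over all tested genes. In sgKMT2B, FOXA1 had 3.94 and 3.90 CPM, against 14.4 and 13.8 CPM in WT, a log2 change of -1.85 ± 0.16 (adjusted p = 3.89e-06), beside a neighbourhood median of 0.06. SOX21, ZIC2 and FOXD3 were lower there too, with log2 changes of -3.78, -0.84 and -1.35. Their neighbourhood medians were -0.52, -0.52 and -0.40, and the part of regional shifts in the count of lower factors was not tested. In sgKDM6A, MSX2 had 82.4 and 58.1 CPM, against 23.3 and 23.2 CPM in WT, a log2 change of 1.59 ± 0.19 (adjusted p = 7.59e-05), whereas GATA2 had 43.6 and 42.9 CPM, against 87.7 and 87.0 CPM in WT, beside a neighbourhood median of -0.59.

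Of 4 cell cycle inhibitors that Polycomb can repress, 3 were lower in sgKDM6A, where 14.6% of all genes were, 0 passed in sgKDM5C and 1 was higher in sgKMT2B. CDKN1A had 39.1 and 38.0 CPM in sgKDM6A and 171 and 201 CPM in sgKMT2B, against 90.9 and 115 CPM in WT. These groups did not overlap, with log2 changes of -1.42 ± 0.12 (adjusted p = 6.85e-06) and 0.86 ± 0.12 (adjusted p = 0.000217). CDKN2B had 4.36 and 4.25 CPM in sgKDM6A, against 12.9 and 10.3 CPM in WT (-1.44 ± 0.19, adjusted p = 0.000159). CDKN2A had 401 and 363 CPM in sgKDM6A, against 630 and 556 CPM in WT (-0.63 ± 0.09, adjusted p = 0.000254), in the knockout in which BMI1 was higher. Both lie on chromosome 9, where the neighbourhood median was -0.40 in sgKDM6A, and whether BMI1 had a part in these falls was not tested.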

How the data were processed

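Poly(A) RNA of 8 HEK293T libraries was sequenced as read pairs. The authors deposited raw read counts per Ensembl gene. HTSeq 0.11.2 and STAR (no version given) were used with the build GRCh38 (hg38), according to the labels and per the submitters' processing notes. Neither the annotation release nor the strand setting is given in the sources used here, so reads of overlapping antisense genes cannot be told apart. The tests used edgeR 4.0.16 in R 4.3.3 (glmQLFit and glmQLFTest on all 8 libraries, 1 coefficient per group, TMM factors, filterByExpr by group, 17527 genes), with Benjamini-Hochberg adjustment over all genes within each comparison and calls at an adjusted p under 0.05. Exon lengths, coordinates and neighbours came from GENCODE v29. The fitting procedure was tested on simulated counts. In every group the replicates differed beyond sampling noise (chi-square per degree of freedom 8.21 to 16.9).

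Members and lists were chosen with earlier results of these data known. Every library is given for the 10 members with the smallest adjusted p among the 13 called with a log2 change of at least 0.5 in size, and other called members are given with the libraries of the comparison concerned. From each list, at most 4 genes with the smallest adjusted p per knockout were open to naming, and some listed genes are not reported here. Alternatives were DESeq2 1.42.0, median-ratio size factors, other filters, a fit of only the 2 groups compared, a replicate block and leaving out each library. Counting error limits the precision within a library, and 2 libraries a group limit it between groups. The unknown strand setting and the overlap of antisense genes limit the values within a library as well.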

Additional observations from a re-analysis of the deposited data

How the results depend on the processing

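Of the 29 calls of members against WT, 13 were kept under every alternative, as were 9 of the 29 between knockouts, and no value changed sign. Members higher in sgKDM5C than in WT numbered 2, but 4 with DESeq2, 6 with no filter on low counts and 5 with the replicate block. Members lower in sgKMT2B than in WT numbered 3, and 5 with no filter. Without 1 library at a time, the counts higher and lower than WT ran from 1 to 7 and 3 to 5 in sgKDM5C, from 3 to 9 and 3 to 8 in sgKDM6A, and from 5 to 9 and 1 to 4 in sgKMT2B. Between knockouts they ran from 2 to 3 and 0 to 2 (sgKDM5C against sgKDM6A), from 1 to 3 and 2 to 5 (sgKDM5C against sgKMT2B), and from 1 to 2 and 4 to 5 (sgKDM6A against sgKMT2B). Where leaving a library out leaves 1 in a group, that library is assumed to vary like the others. Further calls against WT were lost in the fit of only the 2 groups (RBBP7 and PCGF6 in sgKDM5C, RYBP and ASXL2 in sgKDM6A) and with no filter (PCGF6 in sgKDM5C, RYBP in sgKDM6A), and the cause was not tested. Same-numbered libraries of WT and sgKDM5C, sgKDM6A and sgKMT2B had deviations correlated at -0.102, -0.031 and 0.025 across 11249 genes, and those of the knockouts at 0.485 (sgKDM5C and sgKDM6A), 0.323 (sgKDM5C and sgKMT2B) and 0.308 (sgKDM6A and sgKMT2B). With 2 numbers a group and no pairing named in the labels, the numbers were not taken as pairs. The replicate block moved the genes called against WT to 4645, 5521 and 5576, from 3969, 4759 and 4931. Among members against WT, DESeq2 newly called L3MBTL2 and MGA (sgKDM5C), EZH1 (sgKDM6A) and L3MBTL2 and PCGF5 (sgKMT2B). The replicate block newly called BMI1, L3MBTL2 and MGA (sgKDM5C), EED and EZH1 (sgKDM6A) and BMI1 and L3MBTL2 (sgKMT2B) against WT. Between knockouts it newly called CBX2 and SCMH1 (sgKDM5C against sgKDM6A), CBX2 and EZH1 (sgKDM5C against sgKMT2B) and BMI1, EZH1 and RYBP (sgKDM6A against sgKMT2B). WT replicate 2 is the shallowest library, which limits every comparison with WT.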
